A study of Arabidopsis thaliana with 24 samples.

Results

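These 207 root genes of Arabidopsis thaliana had less transcript in iron-deficient than in iron-sufficient wild type, and less again in the iron-deficient pye-1 mutant. They were chosen from the authors' group means in RPKM, which scales reads to gene length and library size, on the scale log2(RPKM + 0.5). A gene was taken if its largest RPKM over the 8 groups was at least 5, if iron-deficient wild type lay at least 1 log2 unit (2-fold) under iron-sufficient wild type, and if pye-1 lay at least 1 log2 unit under iron-deficient wild type. The rule found 207 of the 33602 genes in the table, or of the 15535 genes that reached an RPKM of 5. Because these values chose the genes, both drops are given as descriptions with no test, and the results below are how the lines PPL, SHR23, PEP45, WER13 and WER65 placed them.

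The 24 samples, 3 in each of 8 groups, are RNA libraries made from roots of seedlings at 7 days of age. All plants had 4 days with iron and then 3 days of treatment. Iron-sufficient wild type stayed on medium with 0.1 mM FeEDTA. The other groups, iron-deficient wild type, pye-1 and the 5 lines, were moved to medium without FeEDTA that held 300 µM ferrozine, which binds ferrous iron. The labels state the GFP localization of the lines as V-EN-C-EP for PPL, V-EN for SHR23, C-EN-V for PEP45, EP-C for WER13 and EP for WER65, and do not spell the codes out. The sources used here give neither the promoter of each construct, nor the genetic background of the lines, nor how many independent transformants each stands for. The deposited levels are 1 authors' mean for each group, so no spread between samples and no test of the levels can be given. A gene is said to have fallen or risen only where the authors' deposited table for that comparison lists it, with q under 0.05. Whole roots were sampled, so fewer cells of a type and less RNA in each cell cannot be told apart.

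POPEYE (PYE), the gene mutated in pye-1, codes for a transcription factor of the basic helix-loop-helix family made in iron-deficient roots and known as a repressor of genes that move and store iron. Root hairs are outgrowths of epidermal cells that enlarge the surface for taking up water and minerals; their tips grow by loosening and rebuilding the cell wall with expansins, extensins and xyloglucan enzymes. Aquaporins are channels for water and small solutes in the plasma membrane (PIP) and the vacuole membrane (TIP), and the Casparian strip is the lignin seal between endodermal cells.

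The PYE transcript itself, which is not one of the 207, stood at 11 RPKM in wild type on iron and at 45.1 off iron, 20.6 in pye-1, 25.3 in PPL, 45.8 in SHR23, 28.9 in PEP45, 30.3 in WER13 and 27.5 in WER65. Transcript from the locus was therefore counted in pye-1 too, and these levels do not separate the native gene from an added copy.

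All 207 genes had their largest value in iron-sufficient wild type, where they ranged upward from 5.08 RPKM with a median of 36.3, and 49 of them exceeded 100 RPKM. They lay on all 5 nuclear chromosomes, with 41, 35, 32, 44 and 55 genes on chromosomes 1 to 5. In 9 places a pair of members were next to each other among annotated genes, which took in 18 members. Pathway lists held 52 of the genes: 28 from the lists of root hair growth and root hair regulators, 12 aquaporins, 5 Casparian strip genes, 4 triterpene genes, 2 sugar transporters and 1 zinc transporter. The lists for suberin, xylem, methionine glucosinolates, nitrate, phosphate, iron uptake, iron storage, jasmonate and defence, and root meristem held none, and 155 members were matched to no list. Not every listed name was matched to a measured gene, so a member counted in no list may belong to one under another name. The authors' deposited table of wild type without against with iron listed 194 of the members as lower, where 11.9% of the 15535 genes were so listed. The authors' deposited table of pye-1 listed 191 as lower, against 10.3% of all genes. A total of 183 members were in both tables and 5 in neither; since the rule used these contrasts, nothing is read from the counts.

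Members just inside the RPKM minimum were AT5G02000 at 5.08 and AT2G04680 at 5.27, and genes just outside it were AT4G38690 at 4.48 and QWRF7 at 4.36. On the drop without iron, AT3G54580 at -1.01 and FBA2 at -1.03 log2 units were just inside, and AT1G18430 and AT4G30320 were just outside at -0.997. On the drop in pye-1, AT2G27360 and AT1G14240 were just inside at -1.0006 and -1.0015, and IQD12 at -0.99 was just outside.

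A sequence shared by part of the set was the root hair element, a promoter motif known from genes expressed in root hair cells. It was searched by its published degenerate pattern on both strands of the 250 bases before each gene start in TAIR10.1, the RefSeq build of the genome. It was present in 12 of 203 promoters of protein-coding members (5.91%), in 119 of 15228 promoters of genes that reached 5 RPKM (0.781%) and in 207 of all 27443 promoters (0.754%). The matches were concentrated in the root hair lists, with 10 of 27 promoters (37%), against 2 of 176 among the other members (1.14%). The lists hold genes that were partly recognised by earlier work as root hair specific, some of it through this motif, so the share is no independent property. The G-box CACGTG, a common site of basic helix-loop-helix proteins, was in 9 of 203 member promoters (4.43%) and in 7.32% of the promoters of genes that reached 5 RPKM. No member promoter held both motifs. The 4 promoters shown belong to the root hair list members with a match that had the highest RPKM in iron-sufficient wild type, each written 5′ to 3′ on the strand of its gene with the match in capitals.
PRP3, chr3:23182472-23182721, plus strand, match on the opposite strand at -167 to -151 from the gene start: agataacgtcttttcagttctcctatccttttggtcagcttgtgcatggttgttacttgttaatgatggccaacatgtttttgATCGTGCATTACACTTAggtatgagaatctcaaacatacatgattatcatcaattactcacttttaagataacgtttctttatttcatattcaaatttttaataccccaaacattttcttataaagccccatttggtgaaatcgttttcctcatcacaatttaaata
RHS13, chr4:993040-993289, minus strand, match on the gene's strand at -210 to -194: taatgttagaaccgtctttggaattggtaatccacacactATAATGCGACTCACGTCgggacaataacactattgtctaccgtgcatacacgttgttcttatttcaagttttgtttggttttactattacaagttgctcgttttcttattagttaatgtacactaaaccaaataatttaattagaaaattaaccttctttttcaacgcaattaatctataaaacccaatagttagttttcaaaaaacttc
EXPA7, chr1:4276255-4276504, plus strand, match on the gene's strand at -78 to -62: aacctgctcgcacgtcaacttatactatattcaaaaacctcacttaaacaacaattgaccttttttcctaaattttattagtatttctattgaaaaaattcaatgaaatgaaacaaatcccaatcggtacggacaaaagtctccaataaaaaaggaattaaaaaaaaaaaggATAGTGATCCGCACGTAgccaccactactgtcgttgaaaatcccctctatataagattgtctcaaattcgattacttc
PRP1, chr1:20504651-20504900, plus strand, match on the opposite strand at -129 to -113: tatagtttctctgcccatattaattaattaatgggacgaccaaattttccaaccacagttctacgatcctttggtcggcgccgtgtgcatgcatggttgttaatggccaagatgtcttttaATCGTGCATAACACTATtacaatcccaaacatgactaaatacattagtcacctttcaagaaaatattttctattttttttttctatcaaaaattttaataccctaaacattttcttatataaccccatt

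The lines differed in where they placed the 207 genes. In PPL the members stayed near iron-deficient wild type, in SHR23 and PEP45 most lay near pye-1, in WER13 111 of them lay under pye-1, and in WER65 they were spread from 9 members above iron-deficient wild type to 64 under pye-1. The authors' deposited tables listed none of the members as lower in PPL (background, the share of the 15535 genes so listed, 0.00644%), 163 in SHR23 (78.7% of members, background 10.3%), 183 in PEP45 (88.4%, background 9.87%), 193 in WER13 (93.2%, background 14%) and 144 in WER65 (69.6%, background 11.7%). The table taken as that of PPL holds 3 genes and is headed PYE. It was assigned to PPL because AT1G53480, listed as lower, was at 1.96 RPKM in iron-deficient wild type, 1.93 in pye-1 and 0.0457 in PPL; the other two genes moved the same way in PPL and pye-1, so the PPL counts rest on that 1 gene. All these comparisons use the same iron-deficient wild type that the rule used, so the counts are not independent of how the genes were chosen. The only members listed as higher in any line were EXT11 and AT4G08400 in the authors' deposited table of WER65 (0.966% of members, background 7.99%). The authors' deposited tables of pye-1, PPL, SHR23, PEP45 and WER13 listed no member as higher, where 8.81%, 0.00644%, 7.58%, 8.52% and 8.91% of all genes were so listed.

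**Figure D1:**
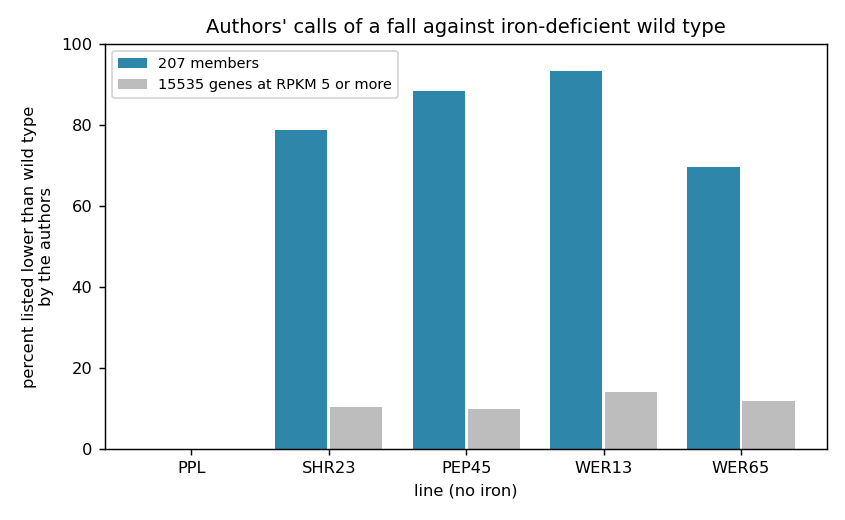
Percent of genes (vertical axis) that the authors' deposited tables list as lower in each line than in iron-deficient wild type, for the 207 members and for the 15535 genes with an RPKM of at least 5. The member bars stand at 78.7% in SHR23, 88.4% in PEP45, 93.2% in WER13 and 69.6% in WER65, with no bar in PPL.

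The sizes of the differences were as follows. The median log2 difference from iron-deficient wild type over the members was -0.45 in PPL, -1.33 in SHR23, -1.38 in PEP45, -1.71 in WER13 and -1.01 in WER65, beside -1.51 in pye-1, which the rule fixed to be at most -1. Over the 15535 genes the median differences lay between -0.01 and 0.01. At least 2-fold lower than iron-deficient wild type were 18 members in PPL (8.70% of members, against 0.444% of all genes) and 132 in SHR23 (63.8% against 4.81%). The counts were 158 in PEP45 (76.3% against 4.28%), 178 in WER13 (86.0% against 7.07%) and 105 in WER65 (50.7% against 5.38%). No member was 2-fold higher in any line, where 0.0579% of all genes were in PPL, 3.61% in SHR23, 3.51% in PEP45, 3.68% in WER13 and 3.25% in WER65.

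Each member was then placed between its own ends, pye-1 at 0 and iron-deficient wild type at 1, on the log2 scale. The rule used both ends, so the places are descriptions that depend on how the genes were chosen. The median place was 0.73 in PPL, 0.17 in SHR23, 0.16 in PEP45, -0.05 in WER13 and 0.26 in WER65. In PPL, 162 members were nearer to wild type, 8 lay above it, 27 were nearer to pye-1 and 10 lay under pye-1. SHR23 had 11 above wild type, 34 nearer to wild type, 109 nearer to pye-1 and 53 under it. The counts in the same order were 0, 14, 152 and 41 in PEP45, 0, 13, 83 and 111 in WER13, and 9, 59, 75 and 64 in WER65. SHR23 and PEP45 thus had nearly the same median but a different scatter, since of these lines only SHR23 had members above wild type.

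The same calls in the authors' deposited tables were combined per gene. SHR23, PEP45, WER13 and WER65 all listed 111 members as lower. Another 40 were listed in SHR23, PEP45 and WER13 and not in WER65, and 19 of these 40 were root hair list members. A further 21 were listed in PEP45, WER13 and WER65 and not in SHR23, and 8 members were listed in no line. The shares of all genes with these same combinations of calls were not counted, so how usual each combination is cannot be said. Absence from a list does not show that a gene was unchanged, and the differences between lines were not tested.

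**Figure D2:**
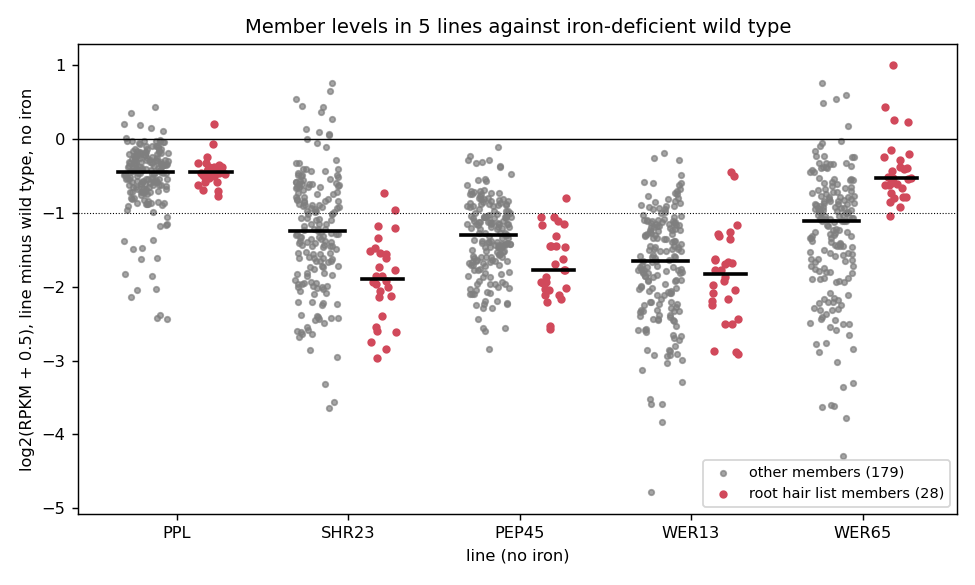
Difference of each member from iron-deficient wild type on the log2(RPKM + 0.5) scale (vertical axis) in the 5 lines, with the 28 root hair list members in red, the other 179 in grey and black bars at the medians. The dotted line marks 2-fold lower. In WER65 the red points have a median of -0.53, against -1.83 in WER13.

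As a comparison set, 566 other genes were also at least 2-fold lower without iron but lay within 2-fold of iron-deficient wild type in pye-1. Their median differences from iron-deficient wild type were -0.11 in PPL, -0.19 in SHR23, -0.16 in PEP45, -0.40 in WER13 and -0.28 in WER65. The authors' deposited tables listed 25.6% of them as lower in SHR23, 18.6% in PEP45, 38.3% in WER13 and 27.6% in WER65. These shares are under those of the 207 members in each of the 4 lines, and both sets were split by pye-1 values, with the same wild type as control throughout.

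The largest coherent group was root hair growth. Of 46 measured genes in the list of root hair wall and growth genes, 26 were members, and RSL2 and LRL3 were the members among 18 measured root hair regulators. Over these 28 genes the median log2 difference from iron-deficient wild type was -2.29 in pye-1, -0.45 in PPL, -1.89 in SHR23, -1.77 in PEP45, -1.83 in WER13 and -0.53 in WER65. The deposited tables of the authors listed 28 of 28 as lower in SHR23, 27 in PEP45, 27 in WER13 and 7 in WER65. The median place of these genes in WER65 was 0.78, closer to wild type than to pye-1.

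EXPA7 (AT1G12560), an expansin that loosens the wall of growing root hairs, was at 68.6 RPKM in wild type on iron and 25.9 in wild type off iron, 2.88 in pye-1, 20.5 in PPL, 3.17 in SHR23, 3.93 in PEP45, 3.11 in WER13 and 14.1 in WER65. PPL and WER65 were nearer to iron-deficient wild type, while SHR23, PEP45 and WER13 sat beside pye-1. In the authors' deposited tables EXPA7 fell in SHR23 (q = 3.47e-05), PEP45 (q = 1.67e-07), WER13 (q = 4.48e-07) and also WER65 (q = 0.00259), where the level was still 4.55-fold that of WER13.

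PRP3 (AT3G62680), a proline-rich wall protein of root hairs, measured 138 RPKM in wild type with iron, 32.6 in wild type without it, 4 in pye-1 and, in PPL, SHR23, PEP45, WER13 and WER65, 21.6, 7.03, 7.12, 6.7 and 21.2. WER65 and PPL were level with each other, and SHR23, PEP45 and WER13 formed a lower group above pye-1. PRP3 fell in WER13 in the authors' deposited table (q = 2.03e-06) and was not listed in WER65. RHS13 (AT4G02270), named for its root hair specific expression, was at 96.3 RPKM in wild type on iron and 42.3 in wild type off iron, 4.97 in pye-1, 29.9 in PPL, 5.88 in SHR23, 9.37 in PEP45, 5.3 in WER13 and 26.5 in WER65. The same split into high PPL and WER65 and low SHR23, PEP45 and WER13 was seen, with WER65 5.01-fold above WER13.

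COBL9 (AT5G49270), which encodes a glycosylphosphatidylinositol-anchored protein needed for hair tip growth, was at 16.7 RPKM in wild type with iron, 4.34 in wild type without it, 0.927 in pye-1 and, in PPL, SHR23, PEP45, WER13 and WER65, 3.59, 0.837, 1.28, 1.01 and 3.14. LRX1 (AT1G12040), a leucine-rich repeat extensin of the hair wall, was at 31.4 RPKM in wild type on iron and 13.5 in wild type off iron, 1.15 in pye-1, 9.92 in PPL, 1.3 in SHR23, 1.92 in PEP45, 2.46 in WER13 and 7.56 in WER65. In COBL9 the SHR23 value lay under pye-1, and in LRX1 all 5 lines lay above pye-1. The authors' deposited table of WER65 listed LRX1 as lower (q = 0.0204) and did not list COBL9.

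Among the regulators, LRL3 (AT5G58010), a basic helix-loop-helix factor of hair growth, was at 49.2 RPKM in wild type on iron and 19.9 in wild type off iron, 2.95 in pye-1, 14.9 in PPL, 2.86 in SHR23, 4.03 in PEP45, 4.68 in WER13 and 15.2 in WER65. WER65 and PPL were again alike for LRL3. RSL2 (AT4G33880), a basic helix-loop-helix factor that acts in hair elongation, was at 8.11 RPKM in wild type with iron, 1.21 in wild type without it, 0.333 in pye-1 and, in PPL, SHR23, PEP45, WER13 and WER65, 1.47, 0.243, 0.324, 0.75 and 1.81, so PPL and WER65 exceeded iron-deficient wild type, although these levels were low and neither line's deposited table listed the gene. The related factor RSL4, a regulator of hair length, did not meet the rule, since it was 16.1 RPKM with and 13.3 without iron in wild type. Its values of 1.49 in pye-1, 10.7 in PPL, 1.31 in SHR23, 1.75 in PEP45, 3.46 in WER13 and 9.84 in WER65 put pye-1, SHR23, PEP45 and WER13 under both PPL and WER65, as for LRL3 and RSL2, and all of these groups under iron-deficient wild type. RSL4 fell in the authors' deposited tables of pye-1, SHR23, PEP45 and WER13.

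For the whole list of 46 measured wall and growth genes, members or not, the authors' deposited tables listed 33 as lower and 2 as higher without iron, 40 and 1 in pye-1, 38 and 0 in SHR23, 37 and 1 in PEP45, 38 and 1 in WER13, and 11 and 2 in WER65. For the 18 regulators the authors' deposited tables had 6 lower and 1 higher without iron, 5 and 1 in pye-1, 4 and 4 in SHR23, 4 and 1 in PEP45, 3 and 3 in WER13, and 0 and 1 in WER65. RHD6, an early-acting basic helix-loop-helix factor of hair formation, was between 2.44 and 5.96 RPKM over the 8 groups and listed in none of the comparisons.

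The summed RPKM of 5 root hair cell markers, 4 of which are members, was 271 in wild type on iron and 89.6 off iron, 10.45 in pye-1, 66.4 in PPL, 13.6 in SHR23, 16.01 in PEP45, 16.7 in WER13 and 55.9 in WER65. The marker that is not a member, RSL4, made up 16.1 of the sum on iron and 13.3 off iron. The sum of the 2 non-hair epidermis markers ranged from 7.09 to 11.0 RPKM over the same groups, but they were not unchanged in the authors' deposited tables. GL2, a regulator of the non-hair fate, was listed as lower in pye-1, SHR23, PEP45 and WER13 and not in PPL or WER65, and WER, which specifies that fate, was listed as higher in SHR23. Whether the number of hair cells differed between the groups was not tested.

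**Figure D3:**
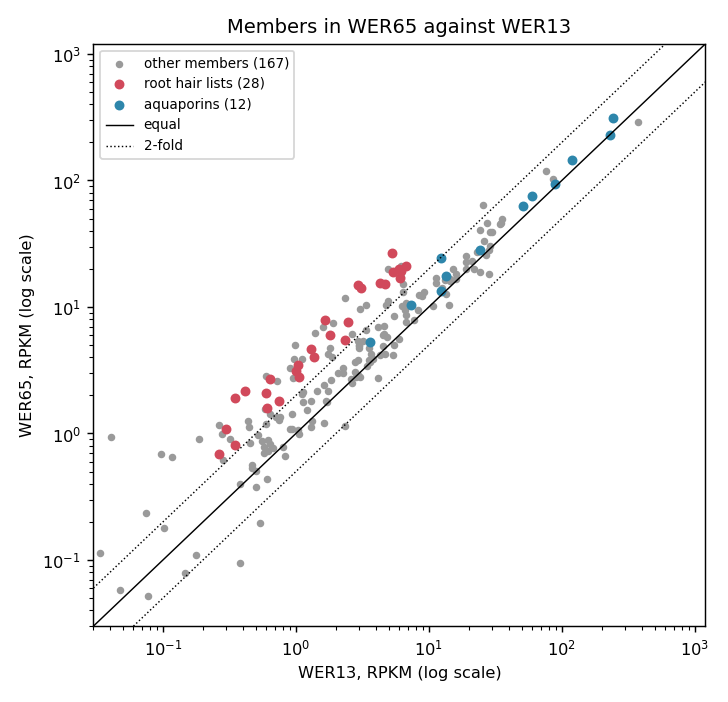
RPKM of each member in WER65 (vertical axis) against WER13 (horizontal axis), both on log scales, with root hair list members in red and aquaporins in blue. All 28 red points lie above the line of equality. On the log2(RPKM + 0.5) scale 23 of them are at least 2-fold higher in WER65, and no aquaporin is. The dotted 2-fold lines are drawn on plain RPKM, so low genes such as RSL2 can pass them without being among the 23.

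The contrast of WER65 with WER13 was not used by the rule, and it has no test because each line is 1 mean. WER65 was at least 2-fold above WER13 for 49 members, where 0.792% of all genes were, and 2-fold under it for none, where 0.193% were. The median difference over all members was 0.43 log2 units. Root hair list members accounted for 23 of the 49, and in all 28 of them WER65 was the higher line, with a median of 1.5. Over the other 179 members the median was 0.36, with WER65 higher in 145 and at least 2-fold higher in 26. The 11 members with extensin or proline-rich products, 6 of which are also in the root hair lists, had a median of 1.59, the 6 xyloglucan enzymes 1.13 and the 7 peroxidase products 0.91. The medians of the other product families were lower, at 0.45 for lipid-transfer-like, 0.39 for dirigent, 0.37 for cytochrome P450 and 0.37 for arabinogalactan products, and the photosynthesis products had -0.18, with WER65 under WER13 in all 5. These families were grouped by words in the product names after their values were seen. A gene whose product is named otherwise can be missing, as EXT11 is from the extensin products. Members with the root hair element in their promoter had a median of 1.23, with 8 of 12 at least 2-fold higher. Members without it had 0.39, with 40 of 191. Of the 12, 10 are root hair list members, and the median of 1.5 over those lists is above 1.23. FUT5 and AT2G47530, which have the element and are outside the lists, were at 0.54 and 0.49. The element is therefore not told apart from list membership here.

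Several members not matched to the lists were also higher in WER65 than in WER13, and they are named here after their values were seen. The list of root hair wall and growth genes named 54 genes, of which 46 were matched and measured. Some of these members may therefore belong to that list under another name. The actin depolymerizing factors ADF8 and ADF11, which remodel the actin filaments of growing cells, were at 9.61 and 17.3 RPKM in WER65 and at 3.05 and 6.20 in WER13. ADF11 shares 41.2% of its exonic 50-base stretches with an overlapping annotated gene, so its level is uncertain. COW1, a phosphatidylinositol transfer protein needed for hair growth, was 3.88 in WER65 and 1.11 in WER13, and the peroxidase AT4G26010 was 11.7 and 2.35. RAP2.11, a transcription factor of the low-potassium response, was 3.30 and 0.906.

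Most aquaporins were low in WER65 as well as in WER13. Of the 12 members, 10 were nearer to pye-1 than to wild type, or under pye-1, in WER65. The exceptions were NIP1;1, at 24.4 RPKM in WER65 and 21.6 in iron-deficient wild type, and TIP4;1, at 17.5 and 20.8, and the authors' deposited table of WER65 lists neither. Of 22 measured aquaporin genes 12 were members, with a median of 774 RPKM in iron-sufficient wild type, which made them some of the most abundant transcripts of the set. Their median log2 difference from iron-deficient wild type was -1.63 in pye-1, -0.57 in PPL, -1.34 in SHR23, -1.46 in PEP45, -1.85 in WER13 and -1.48 in WER65. Of the 12, 8 fell by the authors' deposited tables in SHR23, 11 in PEP45, 11 in WER13 and 10 in WER65. WER65 was above WER13 in 11 of 12 with a median of 0.31, and no aquaporin differed 2-fold between them.

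TIP1;2 (AT3G26520), a vacuolar water channel, measured 2402 RPKM in wild type on iron and 723 in wild type off iron, 113 in pye-1, 466 in PPL, 248 in SHR23, 175 in PEP45, 120.1 in WER13 and 145 in WER65. The order PPL, SHR23, PEP45, WER65, WER13 led down to WER13 beside pye-1, and TIP1;2 fell in the authors' deposited tables of SHR23 (q = 7.95e-06), PEP45 (q = 1.89e-07), WER13 (q = 2.14e-07) and WER65 (q = 7.71e-06). PIP1;1 (AT3G61430), a plasma membrane channel, was at 1814 RPKM in wild type with iron, 361 in wild type without it, 105 in pye-1 and, in PPL, SHR23, PEP45, WER13 and WER65, 254, 109, 91.8, 59.5 and 75.8. Here PEP45, WER13 and WER65 lay under pye-1 and SHR23 just above it.

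Among the TIP2 channels, which carry ammonia as well as water, TIP2;3 had the lowest log2 difference from iron-deficient wild type of all 207 genes in SHR23, WER13 and WER65. TIP2;3 (AT5G47450) was at 1078 RPKM in wild type on iron and 113 in wild type off iron, 28.8 in pye-1, 21.2 in PPL, 8.58 in SHR23, 24.4 in PEP45, 3.62 in WER13 and 5.31 in WER65. Each of the 5 lines lay under pye-1, and WER13 lay 31.2-fold under iron-deficient wild type. TIP2;2 (AT4G17340) was at 1791 RPKM in wild type with iron, 179 in wild type without it, 48.9 in pye-1 and, in PPL, SHR23, PEP45, WER13 and WER65, 64.1, 32.6, 55.6, 24.1 and 28.05, and TIP2;1 (AT3G16240) was at 169 RPKM in wild type on iron and 27 in wild type off iron, 7.36 in pye-1, 4.6 in PPL, 10.09 in SHR23, 15.9 in PEP45, 7.4 in WER13 and 10.4 in WER65. For TIP2;1 the lowest of all groups was PPL, the line in which most members stayed near wild type, but the authors' deposited table of PPL lists neither this gene nor any other member.

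**Figure D4:**
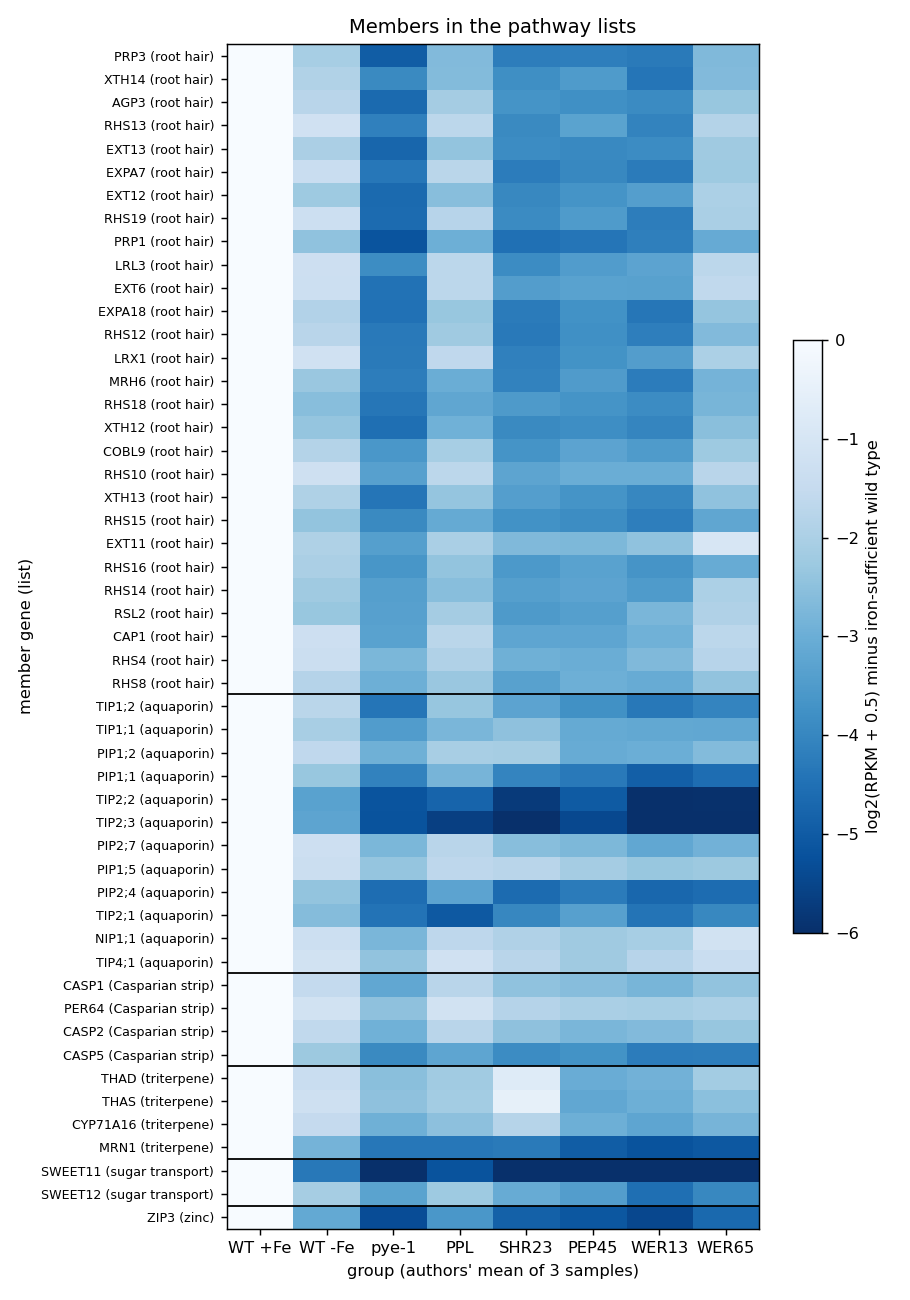
Level of pathway list members in the 8 groups (columns) relative to iron-sufficient wild type, on the log2(RPKM + 0.5) scale. Darker blue is lower, and values under -6 share the darkest shade. Root hair members are pale in PPL and WER65 and dark in SHR23, PEP45 and WER13, while most aquaporins are dark in WER65 too.

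PPL left only 18 members at least 2-fold under iron-deficient wild type. The TIP2 channels TIP2;1, TIP2;2 and TIP2;3 were 3 of them, and 5 of the 8 members with lipid-transfer-like products were others. That product family, grouped after its values were seen, had a median difference of -1.72 in PPL, against -0.45 for all members. AT5G46900, the lowest of these in PPL, was 42.2 RPKM in iron-deficient wild type, 8.37 in pye-1 and 7.49 in PPL. It shares 22.5% of its exonic 50-base stretches with its neighbour AT5G46890, at 63.3, 9.30 and 20.2 RPKM in the same groups, so the levels of the pair are uncertain. In the same family, AT4G12510 and AT4G12520 share 51.8% and 47.3% of theirs with each other. AT4G22460 and AT1G62510 share 67.9% and 41.0% with other annotated genes, while AT2G37870 and AT4G22666 share none. The family median therefore does not rest on 8 separately measured genes. XTH17, a xyloglucan endotransglucosylase/hydrolase, was 5.37 in iron-deficient wild type, 1.67 in pye-1 and 0.829 in PPL. At the other end, SNRK2.7, a protein kinase of the SnRK2 family, was 18.7 in iron-deficient wild type, 4.79 in pye-1 and 23.96 in PPL. CLE2, which encodes a small signalling peptide, was 6.24, 1.56 and 7.17 in those groups.

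The medians of the Casparian strip genes lay between pye-1 and iron-deficient wild type in each of the 5 lines, though single genes lay outside: 2 of 5 above wild type in PPL, and 1 under pye-1 in WER13 and in WER65. The list had 8 measured genes and 5 members, among them CASP1 and CASP5, which encode scaffold proteins that mark the strip, and the peroxidase gene PER64, which acts in its lignification. Their median log2 difference from iron-deficient wild type was -1.34 in pye-1, -0.18 in PPL, -0.89 in SHR23, -1.06 in PEP45, -1.10 in WER13 and -0.81 in WER65. The authors' deposited tables listed 4 of 5 as lower in SHR23, 5 in PEP45, 4 in WER13 and 4 in WER65. CASP1 (AT2G36100) was at 246 RPKM in wild type on iron and 84.8 in wild type off iron, 26.7 in pye-1, 72.6 in PPL, 45 in SHR23, 40.3 in PEP45, 34.7 in WER13 and 45.8 in WER65. Every line other than PPL had CASP1 between pye-1 and wild type and nearer to pye-1, and it fell in the authors' deposited tables of SHR23 (q = 0.000476), PEP45 (q = 0.000137), WER13 (q = 7.97e-05) and WER65 (q = 0.000972). CASP5 (AT5G15290) was at 80.2 RPKM in wild type with iron, 16.2 in wild type without it, 4.78 in pye-1 and, in PPL, SHR23, PEP45, WER13 and WER65, 8.11, 5, 5.69, 3.8 and 3.9. For CASP5 both WER lines lay under pye-1.

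MYB36, the transcription factor that switches on the strip genes, was not a member and ranged from 15.7 to 27.1 RPKM, listed in none of the comparisons. The summed RPKM of 4 endodermis markers, which include CASP1, was 293 in wild type on iron and 121 off iron, 55.1 in pye-1 and 66.7 to 109.6 in the lines. CASP1 itself was the larger part of that sum in wild type and in the lines, but not in pye-1. The other 3 markers summed to 47.04 RPKM on iron and 35.7 off iron, 28.5 in pye-1, 36.96 in PPL, 38.6 in SHR23, 29.4 in PEP45, 31.99 in WER13 and 30.2 in WER65, and none of them is listed in any comparison. The 7 dirigent products, a family with members known from lignin deposition, had medians of -0.28 in PPL, -0.89 in SHR23, -1.15 in PEP45, -1.20 in WER13 and -0.92 in WER65.

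SHR23 and PEP45 were set apart by the triterpene genes, which make thalianol and marneral, root metabolites encoded in gene clusters on chromosome 5. The list had 12 measured genes and 4 members: the oxidosqualene cyclases THAS and MRN1, and the cytochrome P450 genes THAD and CYP71A16. Their median log2 difference from iron-deficient wild type was 0.19 in SHR23 and -1.78 in PEP45, with -0.94 in PPL, -1.34 in pye-1, -1.72 in WER13 and -1.29 in WER65. The authors' deposited tables listed all 4 as lower in PEP45, WER13 and WER65, and MRN1 alone in SHR23. SHR23 was above PEP45 for all 4, by a median of 1.74 log2 units, and 3 of the 4 were at least 2-fold higher.

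THAS (AT5G48010), thalianol synthase, measured 72.5 RPKM in wild type on iron and 30.3 in wild type off iron, 12.6 in pye-1, 16.1 in PPL, 51.4 in SHR23, 7.64 in PEP45, 8.82 in WER13 and 12.3 in WER65. SHR23 was the highest of the iron-deficient groups and PEP45 the lowest. THAD (AT5G47990), a cytochrome P450 gene of the same cluster, was at 182 RPKM in wild type with iron, 68.6 in wild type without it, 30.7 in pye-1 and, in PPL, SHR23, PEP45, WER13 and WER65, 39.2, 108, 21.7, 24.1 and 40.8. MRN1 (AT5G42600), marneral synthase, was at 42.2 RPKM in wild type on iron and 5.4 in wild type off iron, 1.61 in pye-1, 1.61 in PPL, 1.69 in SHR23, 0.883 in PEP45, 0.668 in WER13 and 0.772 in WER65, with SHR23 beside pye-1. THAS fell in PEP45 (q = 0.00261) and WER13 (q = 8.1e-05) and THAD fell in PEP45 (q = 8.04e-05) in the authors' deposited tables, and neither is listed in SHR23 or in pye-1.

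**Figure D5:**
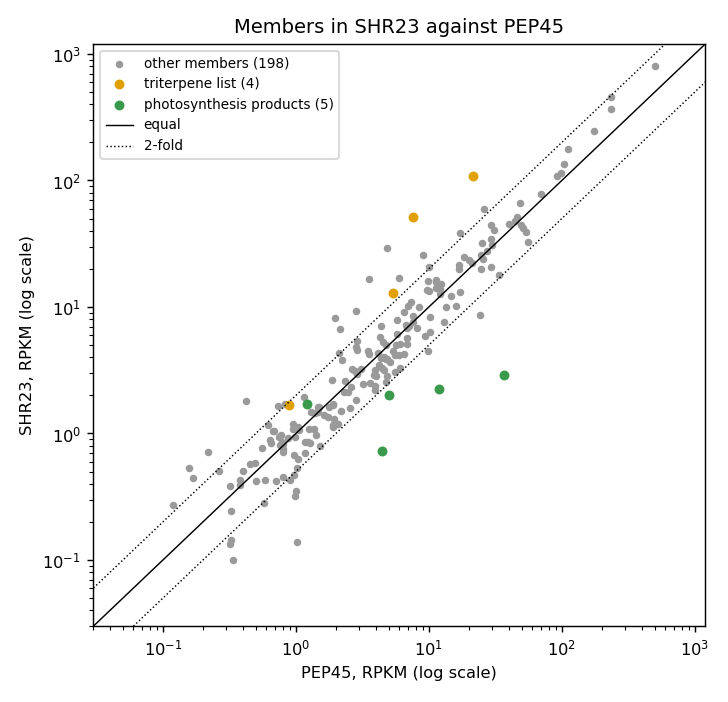
RPKM of each member in SHR23 (vertical axis) against PEP45 (horizontal axis), both on log scales. The 4 triterpene list members (orange) lie above the line of equality, and 4 of the 5 members with photosynthesis products (green) lie past 2-fold under it.

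Over all members SHR23 and PEP45 were nearly level, with a median difference of 0.05. SHR23 was at least 2-fold above PEP45 for 13 members (6.28% of members, against 1.19% of all genes). It was 2-fold under PEP45 for 7 (3.38% of members, against 1.17% of all genes). Besides THAS, THAD and CYP71A16, the 13 included CYP705A1 at 16.7 RPKM in SHR23 and 3.52 in PEP45, and AT5G23840, with an MD-2-related lipid recognition domain, at 29.3 and 4.86. The acyltransferase gene AT5G47980, which is next to THAD, was 6.70 and 2.15. Of the 7 that were lower in SHR23, 4 had photosynthesis products: LHCA4, an antenna protein of photosystem I, was 2.92 in SHR23 and 36.6 in PEP45, and PSAF, a subunit of that photosystem, was 2.23 and 11.9.

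The 5 photosynthesis products had a median of 15.3 RPKM in wild type on iron and 6.34 off iron, 2.39 in pye-1, 4.55 in PPL, 2.01 in SHR23, 5.01 in PEP45, 0.797 in WER13 and 0.662 in WER65. Green tissue markers had a similar order over the lines, with PEP45 highest and both WER lines lowest, but differed in wild type, where their sum was higher without iron. The summed RPKM of 9 such markers, none of them members, was 149 in wild type on iron and 169 off iron, 45.2 in pye-1, 56.0 in PPL, 28.02 in SHR23, 209 in PEP45, 12.2 in WER13 and 12.7 in WER65. LHCA4, PSAF, CRD1 and FBA2 were listed as lower in neither the authors' deposited table of wild type without iron nor that of pye-1, so they entered through group means alone. The part of the shoot or of greening roots in these values was not tested.

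The sugar transporter SWEET11 and the zinc transporter ZIP3 were among the 10 members with the largest drop from iron-sufficient wild type to pye-1. SWEET11 (AT3G48740), a sucrose exporter, was at 480.2 RPKM in wild type on iron and 23.7 in wild type off iron, 4.26 in pye-1, 12.6 in PPL, 6.82 in SHR23, 6.83 in PEP45, 2.98 in WER13 and 4.73 in WER65. That was 113-fold from iron-sufficient wild type to pye-1, the largest such ratio among the members, and WER13 lay lower still. SWEET12, its close relative, was 274 and 64.0 RPKM in wild type, 27.5 in pye-1 and 11.3 in WER13. ZIP3 (AT2G32270), a zinc transporter, was at 48.9 RPKM in wild type with iron, 5.15 in wild type without it, 0.732 in pye-1 and, in PPL, SHR23, PEP45, WER13 and WER65, 3.56, 1.19, 0.952, 0.636 and 1.42. The authors' deposited tables listed SWEET11, SWEET12 and ZIP3 as lower in SHR23, PEP45, WER13 and WER65. The summed RPKM of 3 phloem markers, none of them members, was 93.9 and 87.3 in wild type with and without iron, 50.3 in pye-1, 77.4 in PPL and 32.5 to 50.6 in the other lines, and its part in the SWEET values was not tested.

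MLP34 (AT1G70850), a major latex protein-like gene, was the most abundant member. It was at 4614 RPKM in wild type on iron and 1627 in wild type off iron, 398 in pye-1, 1338 in PPL, 805 in SHR23, 499 in PEP45, 376 in WER13 and 289.9 in WER65. PPL was near iron-deficient wild type and WER65 was the lowest group, so MLP34 did not share the placement of the root hair genes in WER65. AT4G07820, which encodes a secreted cysteine-rich protein of the CAP family, was at 439.5 RPKM in wild type with iron, 212 in wild type without it, 33.4 in pye-1 and, in PPL, SHR23, PEP45, WER13 and WER65, 193, 20.8, 29.1, 14.4 and 16.6. PPL was near wild type and the other 4 lines were under pye-1.

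PPL and WER13 marked the ends of the placement. PPL was at least 2-fold above WER13 for 120 members, where 5.57% of all genes were, and 2-fold under it for none, where 3.24% were. The median difference was 1.16 log2 units, and PPL was the higher line for 201 of 207.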

How the data were processed

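Poly(A)-selected, directional libraries were made from razor-separated roots, per the labels' protocols. FastQC, TopHat2, edgeR and the TAIR10 build are named, without versions or roles, per the submitters' processing notes. RPKM values were made and deposited by the authors for 33602 genes as 1 column for each of 8 groups of 3 samples; read counts were not used here, so library depth and counting error are not given. The q-values come from 7 tables deposited by the authors, all under 0.05, and the test behind them is not stated. The sample records write the genotype of the mutant as PYE, and the series design as pye-1. One of the 7 tables carries the heading PYE, and it was assigned to PPL from 1 of its 3 genes, so every PPL call rests on that match. Replicates are separate samples by their labels, with no statement that they were separate cultures, so the q-values may measure technical spread.

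Differences were taken on log2(RPKM + 0.5), and folds are plain ratios of RPKM. The members and the gene lists were chosen with earlier results of these data known. Named genes were the list and marker members (at most 6 with the highest RPKM with iron for a longer list), the 10 most abundant members, the 10 with the largest drop to pye-1, the 5 highest and 5 lowest in each line among members of at least 2 RPKM in iron-deficient wild type, genes beside each threshold, and PYE; RSL4, RHD6, MYB36, GL2, WER, AT1G53480, NIP1;1, TIP4;1, CRD1, AT4G26010, AT5G47980, CYP705A1, ADF8, ADF11, COW1 and RAP2.11 fall outside it and were chosen after their values were seen. Identifiers were matched to RefSeq TAIR10.1, with 32835 of 33602 found and all 207 members among them. Promoters are the 250 bases before each protein-coding gene start, and sequence sharing was counted over exonic 50-base stretches, where 23 members shared over 10% with another gene. The selection step was tested on simulated data. Python 3.11.15, pandas 2.3.3, numpy 2.4.6 and matplotlib 3.10.9 were used. One member of a pathway list is counted with its list and not reported here by name. A worded sheet about where promoters are active was left out.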

Additional observations from a re-analysis of the deposited data

Results flagged for a closer look

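EXT11, an extensin gene, and AT4G08400, a proline-rich extensin-like gene, were listed in opposite directions by the authors' deposited tables of different lines, all against the same iron-deficient wild type. EXT11 was 2.77 RPKM in iron-deficient wild type and fell to 1.46 in SHR23 and 1.801 in WER13, whereas it rose to 6.01 in WER65 (q = 0.00759 in the authors' deposited table). AT4G08400 was 3.47 RPKM in iron-deficient wild type and fell to 1.35 in SHR23 and 1.40 in WER13, whereas it rose to 6.21 in WER65 (q = 0.0439 in the authors' deposited table). The difference between the lines was not tested. In iron-sufficient wild type the genes stood at 12.1 and 20.2 RPKM, so WER65 remained under that level for both. AT4G08400 shares 51.4% of its exonic 50-base stretches with AT4G08410, which stood at 7.41 RPKM in WER65 and 1.91 in WER13, so the levels of the pair are uncertain.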

How the results depend on the processing

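For 24 summary results there were 239 values under other settings. Of these, 196 stayed within 0.1 log2 units, or within the interval of a share or 1.5 times a count, and 43 moved. Counts and shares cannot change sign, and of the medians 0 did. The number of members was 531 with 1.5-fold in both steps and 50 with 3-fold. All 207 members were kept by a pseudocount of 0.1 (238 genes) and by a minimum of 1 RPKM or none (232 genes), and 183 genes remained where the authors' deposited tables list both falls.

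With 1.5-fold in both steps the median log2 difference was -0.29 in PPL, -0.93 in SHR23, -0.93 in PEP45 and -1.29 in WER13, and with 3-fold it was -0.63 in PPL, -1.73 in SHR23, -1.64 in PEP45, -2.08 in WER13 and -1.34 in WER65. A pseudocount of 0.1 gave -1.44 in SHR23, -1.93 in WER13 and -1.11 in WER65, and a pseudocount of 1 gave -1.24 in PEP45 and -1.60 in WER13. A minimum of 1 RPKM, or none, gave -1.60 in WER13.

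The share of members listed as lower in the authors' deposited tables was, with 1.5-fold and 3-fold steps, 64.2% and 94% in SHR23, 71.4% and 96% in PEP45, and 85.1% and 100% in WER13; in PEP45 it was 94.0% where both falls are listed. The share 2-fold lower was 4.71% and 20% in PPL, 46.5% and 88% in SHR23, 44.8% and 96% in PEP45, 68.0% and 98% in WER13, and 58% in WER65 with 3-fold steps. WER65 was 2-fold above WER13 for 12.4% and 36% of the members, and PPL for 47.8% and 70%. The share nearer to or under pye-1 was 87.2% in PEP45 and 76.1% in WER65 with 1.5-fold steps, 26% in PPL and 90% in SHR23 with 3-fold steps, and 96.7% in PEP45 where both falls are listed. The moves with other steps or minimums follow from their construction, which admits or leaves out genes, and a larger pseudocount shrinks the differences of low genes by construction. Leaving out the 23 members that share over 10% of their exonic stretches, chosen after seeing the data, left every summary result within these limits, as did centring each group on its median.

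No paired analysis was possible because the deposited levels hold 1 mean for each group, and leaving out each replicate was not run for the same reason. Without values for each sample, neither the spread behind a level nor differences between lines can be tested, and members of low RPKM rest on few reads.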
